A study of Mus musculus with 6 samples.

Results

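The Notch receptors Notch1, Notch2, Notch3 and Notch4, the ligands Jag1, Jag2, Dll1 and Dll4 and the target genes Hes1 and Hey1 were examined in 6 spontaneous mouse tumors. These 10 genes were taken by symbol from a table of 23358 gene entries, without use of their values, and all 10 were measured in every tumor. The tumors came from female mice that carried NT3, an allele of the NF-κB inducing kinase NIK (Map3k14) without its TRAF3-binding part, placed behind a loxP-flanked stop cassette at the ROSA26 locus. Both groups therefore shared a NIK protein that escapes degradation and differed in the Cre that removed the stop cassette.

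In the Osx-Cre;NT3 mice (3 tumors) the Cre was the Osx1-GFP::Cre Tet-OFF transgene, which is driven by the Osterix promoter of osteoblast-lineage cells, in mice of mixed C57Bl/6J and CD1 ancestry. These mice received doxycycline chow until weaning and standard chow afterwards, which switched the transgene on. In the FSP1-Cre;NT3 mice (3 tumors) the Cre followed the S100a4 promoter, active in fibroblasts and also reported in myeloid cells, on an FVB/n background, and no doxycycline schedule was described for them. The NT3 parent was on C57Bl/6J, so that Cre line, strain mixture and doxycycline history cannot be told apart. The Osx-Cre;NT3 tumors were numbered 13, 18 and 25, were all on the trunk, and appeared after 150, 168 and 115 days. The FSP1-Cre;NT3 tumors were numbered 27 (perineal, 101 days), 29 (trunk, 72 days) and 36 (perineal, 52 days). The age at collection was not given in the sources used here, and no tumor-free tissue was analysed here.

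Notch receptors are single-pass membrane proteins that are cut after binding a ligand of the Jagged or Delta-like family on a neighbouring cell. The released intracellular part enters the nucleus, joins the DNA-binding protein RBPJ and a Mastermind coactivator, and switches on repressors of the Hes and Hey families. In skin, Notch1 and Jagged ligands act in keratinocyte differentiation, whereas Notch3 is known from pericytes and smooth muscle and Notch4 and Dll4 from endothelium.

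Total counts ranged from 51824408 in tumor 13 to 163297772 in tumor 18. The average RNA integrity number given by the submitters was higher in the FSP1-Cre;NT3 group, 8.5, than in the Osx-Cre;NT3 group, 7.7. The basal keratinocyte keratins Krt5 and Krt14 stood at 2590 to 6083 and 1636 to 4102 CPM (reads of a gene scaled to a common library size), and the fibroblast collagen Col1a1 at 885 to 3999 CPM, so that transcripts of both cell classes were present in all 6 tumors. The paper proposes that the epidermal processes in its tumor profiles likely came from skin left on the tumors, which was not tested here. Map3k14, the gene of the transgene, was at 54.6, 38.7 and 118 CPM in tumors 13, 18 and 25 and at 103, 90.8 and 43.5 CPM in tumors 27, 29 and 36; reads of the NT3 allele and of the mouse's own gene cannot be told apart in these counts. Tumor 36 stood apart, with Krt8 at 2247 CPM and Krt19 at 1091 CPM, against 243 to 429 and 11.8 to 43.3 CPM in the other 5, and with the smooth muscle gene Cnn1 at 238 CPM against 2.05 to 4.91 CPM. Of the other simple epithelium markers, Cldn3 and Elf3 were also highest in tumor 36. Krt18 was highest in tumor 18 (444 CPM, against 245 in tumor 36) and Krt7 in tumor 27 (219 CPM, against 98.7). Cldn4 was lowest in tumor 36, at 60.1 CPM.

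The libraries also differed by gene length. Relative to the mean of the 6 tumors on the log2 scale, the median gene over 8 kb was at −0.42 in tumor 13 and −0.67 in tumor 18, and at 0.47 in tumor 25 and 0.34 in tumor 27. The median gene under 1 kb ran the other way, at 0.46 and 0.61 in tumors 13 and 18. Because 8 of the 10 Notch genes are longer than 3 kb, and the receptors are 6.604 to 10.506 kb long in the table, each comparison of them is given below also with this trend taken out.

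The promoters of the most abundant receptor (Notch1), the most abundant ligand (Jag1) and Notch2 are shown because NIK activates NF-κB and because RBPJ binds the core TGGGAA. Each is 250 bases before and 50 bases after the start site (RefSeq, GRCm38.p6), 5′ to 3′ on the gene's strand, with an NF-κB consensus match in capitals where there was a match. They lie at chr2:26503773-26504072 (minus strand), chr2:137116471-137116770 (minus strand) and chr3:98013288-98013587 (plus strand).
Notch1: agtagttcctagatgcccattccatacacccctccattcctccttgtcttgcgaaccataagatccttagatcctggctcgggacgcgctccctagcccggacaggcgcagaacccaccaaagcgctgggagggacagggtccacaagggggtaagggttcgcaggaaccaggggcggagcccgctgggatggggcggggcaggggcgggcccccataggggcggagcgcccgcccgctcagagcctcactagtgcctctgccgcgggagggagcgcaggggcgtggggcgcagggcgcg
Jag1: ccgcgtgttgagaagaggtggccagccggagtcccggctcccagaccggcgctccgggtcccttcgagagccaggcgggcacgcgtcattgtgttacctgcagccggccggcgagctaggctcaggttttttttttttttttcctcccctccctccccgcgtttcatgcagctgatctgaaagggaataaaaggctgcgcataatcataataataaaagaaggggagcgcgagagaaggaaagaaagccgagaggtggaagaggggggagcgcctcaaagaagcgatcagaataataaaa
Notch2: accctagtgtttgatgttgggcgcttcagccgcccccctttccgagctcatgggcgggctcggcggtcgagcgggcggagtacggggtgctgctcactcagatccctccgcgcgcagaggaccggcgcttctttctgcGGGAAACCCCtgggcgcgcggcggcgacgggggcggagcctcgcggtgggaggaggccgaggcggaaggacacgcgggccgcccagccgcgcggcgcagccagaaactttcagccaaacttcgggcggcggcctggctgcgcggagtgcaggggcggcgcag

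Promoter entries were found for 8 of the 10 genes, in 9 windows (Dll1 had a second start site). The NF-κB consensus was matched only in Notch2, by GGGAAACCCC at 112 bases before the start site (offset −112, a match on both strands), whereas 4.51% of 32851 mouse promoter windows of the same length held a match. TGGGAA, searched on both strands, was in 0 of the 9 windows and in 25.6% of all windows. A match is only a run of letters, and its absence says nothing about binding outside these windows.

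Notch1 was the predominant receptor transcript (Notch1, chr2:26457902-26503822, minus strand, mm10). It was at 336, 129 and 680.1 CPM in Osx-Cre;NT3 tumors 13, 18 and 25 and at 691, 651 and 254 CPM in FSP1-Cre;NT3 tumors 27, 29 and 36. Tumors 25, 27 and 29 were high and tumors 18 and 36 low, so that each line held both high and low tumors. The Osx-Cre;NT3 mean was 382 ± 278 CPM (SD, n = 3), and the mean of the FSP1-Cre;NT3 line was 532 ± 242 CPM (SD, n = 3).

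Notch2 (chr3:98013538-98150367, plus strand), a widely expressed receptor, was at 53.8, 35.9 and 121 CPM in tumors 13, 18 and 25 and at 113, 87.6 and 65.5 CPM in tumors 27, 29 and 36. Its order among the tumors resembled that of Notch1, with 18 lowest and 25 and 27 highest, and the lines overlapped.

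Notch3 (chr17:32120893-32166852, minus strand) varied most of the 10 genes. It was at 9.68, 2.87 and 26.1 CPM in tumors 13, 18 and 25 and at 39.2, 31.8 and 37.5 CPM in tumors 27, 29 and 36. All 3 FSP1-Cre;NT3 tumors were above all 3 Osx-Cre;NT3 tumors, and the highest value was 13.7 times the lowest. Of all genes tested, 91.5% had a smaller ratio of highest to lowest tumor. Notch3 was also the only member whose groups did not overlap between lines, a pattern seen in 17% of the 16415 genes tested and, in the same direction, in 9.03%.

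Notch4 (chr17:34564295-34588543, plus strand) was at 19.7, 8.74 and 30.1 CPM in tumors 13, 18 and 25 and at 33.1, 30.5 and 26.1 CPM in tumors 27, 29 and 36. The lines overlapped only through tumor 25, which exceeded tumor 36.

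On the length-corrected RPKM scale (reads scaled to library size and gene length, as deposited), Notch1 made up 75.5% ± 6.10 (SD, n = 6) of the summed receptor level. Notch2 followed at 13.1% ± 3.05, Notch4 at 6.495% ± 1.68 and Notch3 at 4.92% ± 3.37. In tumor 36 Notch1 had its lowest share, 64.2%, and Notch3 its highest, 11.3%, against 72.8% to 80.2% and 1.93% to 5.27% in the other 5. The sum over the 4 receptors was 33.6, 14.2 and 74.1 RPKM in tumors 13, 18 and 25 and 82.7, 68.3 and 33.7 RPKM in tumors 27, 29 and 36, a 5.83-fold range in which tumor 36 was closer to tumor 13 than to the other FSP1-Cre;NT3 tumors.

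**Figure D1:**
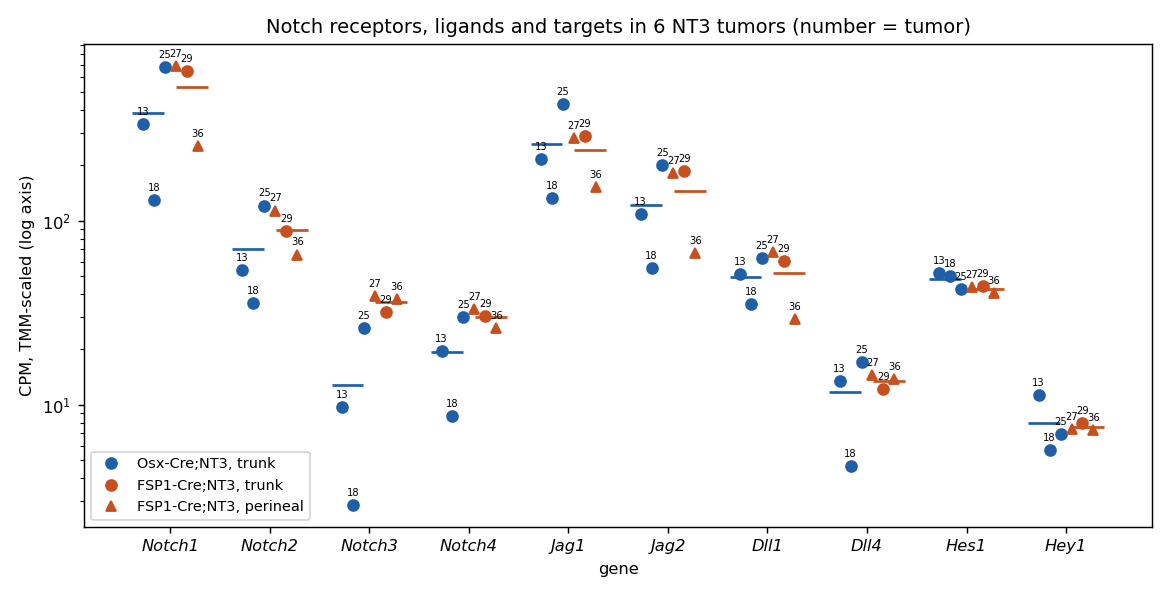
Level of each of the 10 genes in each tumor, in TMM-scaled CPM on a log axis. Blue is Osx-Cre;NT3 and orange FSP1-Cre;NT3, circles are trunk and triangles perineal tumors, small numbers name the tumor and bars are the means of the 3 tumors of a line. Notch3 is the only gene whose orange points (31.8 to 39.2 CPM) all lie above its blue points (2.87 to 26.1 CPM), and Hes1 stays within 40.3 to 51.7 CPM.

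Among the ligands, Jag1 (chr2:137081451-137116520, minus strand) was highest, at 217, 132 and 430.2 CPM in tumors 13, 18 and 25 and at 279.8, 288 and 153 CPM in tumors 27, 29 and 36. Tumor 25 was the highest and tumors 18 and 36 were the lowest, so that the lines overlapped over most of their range.

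Jag2 (chr12:112908590-112929495, minus strand), the second Jagged ligand, was at 109, 55.6 and 199.9 CPM in tumors 13, 18 and 25 and at 182, 186 and 66.8 CPM in tumors 27, 29 and 36. It shared with Jag1 the same highest tumor and the same lowest pair. Jag1 exceeded Jag2 in RPKM in all 6 tumors, by 1.13-fold in tumor 27 to 1.76-fold in tumor 18.

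Dll1 (chr17:15367354-15375823, minus strand), a Delta-like ligand of many epithelia, was at 51.2, 35.1 and 62.7 CPM in tumors 13, 18 and 25 and at 67.3, 60.4 and 29.2 CPM in tumors 27, 29 and 36. Here tumor 36 was the lowest and tumor 18 next.

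Dll4 (chr2:119325784-119335666, plus strand), the ligand of endothelial tip cells, was at 13.4, 4.67 and 17.1 CPM in tumors 13, 18 and 25 and at 14.5, 12.2 and 13.9 CPM in tumors 27, 29 and 36. Only tumor 18 departed from the others. Jag1 supplied 47.1% ± 3.47 (SD, n = 6) of the summed ligand RPKM, Jag2 32.8% ± 4.34, Dll1 16.1% ± 2.91 and Dll4 4.02% ± 1.63, with the highest Dll4 share, 7.08%, in tumor 36. The ligand sum ranged from 37.5 RPKM in tumor 18 to 123 RPKM in tumor 25, or 3.28-fold.

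**Figure D2:**
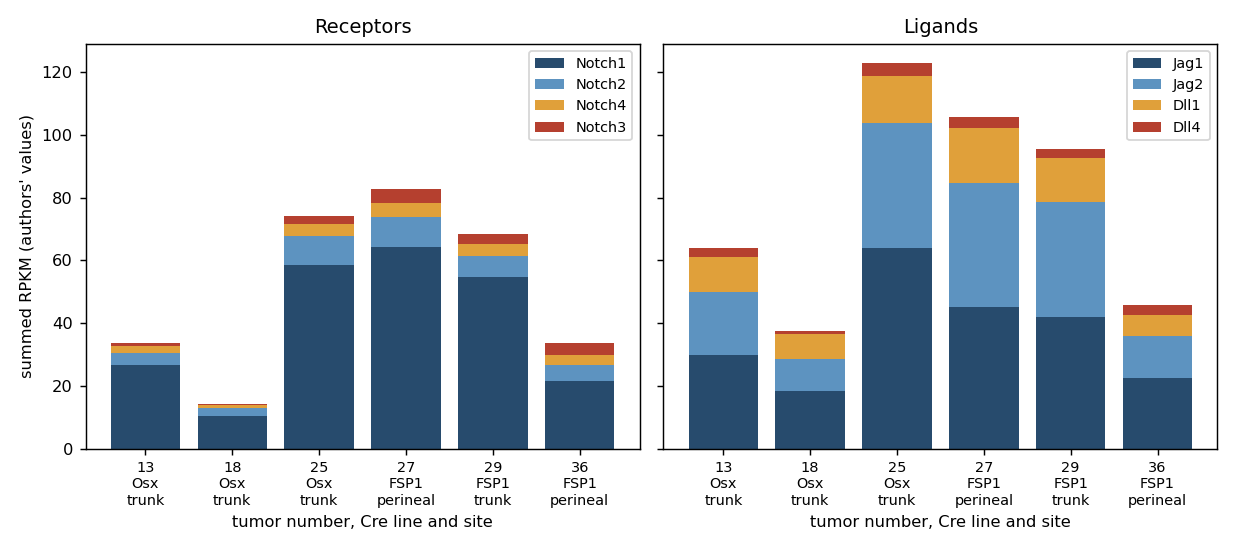
Stacked bars of the authors' RPKM for the 4 receptors (left) and the 4 ligands (right) in each tumor, labelled by number, Cre line and site. Notch1 and the Jagged ligands fill most of every bar, and both sums are smallest in tumor 18 (14.2 and 37.5 RPKM).

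The target genes did not follow the range of the receptors. Hes1 (chr16:30065357-30067796, plus strand), a repressor that is the best known Notch target, was at 51.7, 50.3 and 42.4 CPM in tumors 13, 18 and 25 and at 43.4, 44.2 and 40.3 CPM in tumors 27, 29 and 36. Its highest tumor was 1.28 times its lowest, and only 3.19% of all genes tested had a smaller ratio. In tumor 18, which had the lowest Notch1, Hes1 was second highest in CPM. The ratio of Hes1 to Notch1 in RPKM was therefore 2.55 in tumor 18, close to 1 in tumors 13 and 36 (1.01 and 1.04) and 0.408 to 0.444 in tumors 25, 27 and 29. Hes1 is a short gene, 1.451 kb in the table, and the length trend given above raised short and lowered long genes in tumors 13 and 18. With the trend on gene length and GC content taken out, Hes1 was not raised in tumor 18. It lay at −0.18 on the log2 scale there and at −0.23 in tumor 36, against 0.04 to 0.19 in the others. Notch1 lay at −0.67 in tumor 18 and −0.66 in tumor 36, against 0.15 to 0.45 in the others.

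Hey1 (chr3:8663359-8667038, minus strand), a Hairy-related repressor of vessels and mesenchyme, was at 11.3, 5.73 and 6.92 CPM in tumors 13, 18 and 25 and at 7.42, 8.0 and 7.31 CPM in tumors 27, 29 and 36. Its highest and lowest values were both Osx-Cre;NT3 tumors, and the FSP1-Cre;NT3 tumors lay between them.

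Ordered by mean RPKM, the genes ran Notch1 (39.4 ± 22.6, SD, n = 6), Jag1 (36.9 ± 16.9), Jag2 (26.7 ± 13.7), Hes1 (25.0 ± 1.75), Dll1 (12.0 ± 4.15), Notch2 (6.17 ± 2.88), Notch4 (3.04 ± 1.23), Dll4 (2.96 ± 1.05), Hey1 (2.82 ± 0.618) and Notch3 (2.54 ± 1.62). In 4 of the 9 neighbouring pairs the order was the same in all 6 tumors, namely Jag1 over Jag2, Hes1 over Dll1, Dll1 over Notch2 and Notch2 over Notch4. For each of these the two-sided exact sign-flip permutation test over 6 tumors gave p = 0.03125, the smallest it allows, and 0.0703 after Benjamini-Hochberg adjustment over the 9 pairs. The pairs were set by the order of the means in these same tumors. The p-values do not allow for that choice, so they cannot decide whether the order holds. The other 5 pairs differed by less than their spread, with exact p of 0.5 or more. Since Notch3 ranked between place 7 and place 10 within a tumor, its last place in the mean rested on tumors 13 and 18, without which it was at 3.51 RPKM, above Hey1 at 2.78 RPKM.

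The comparison of the Cre lines asked whether these transcripts differed between tumors of mice with the Osterix-driven Cre and tumors of mice with the S100a4-driven Cre. The paper holds that its evidence points to a mesenchymal origin, considers an epithelial origin unlikely, and leaves the specific lineage open. The origin was not tested here. By the quasi-likelihood test of edgeR, adjusted by Benjamini-Hochberg over all genes, 0 of the 10 genes passed an adjusted p of 0.05, as did 0% of the 16415 genes tested. At an unadjusted p under 0.05 the count was also 0 of 10, against 10.8% of all genes, and DESeq2 called 0 of 10 against 2.56%. All 4 receptors, 3 of 4 ligands and 0 of 2 targets had a log2 fold change above 0 (FSP1-Cre;NT3 over Osx-Cre;NT3), as did 51.1% of all genes. With library sizes alone in place of TMM scaling, Hey1 was also above 0. The median was 0.23 over the 10 genes and 0.01 over all genes. With each library's trend on gene length and GC content taken out, 5 of the 10 genes were above 0. Their median was then 0.003, against −0.015 over all genes in that fit.

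Notch3 had the largest difference, a log2 fold change of 1.49 (SE 0.70, 95% interval −0.18 to 3.17, edgeR adjusted p = 0.466). Its interval covers both no difference and a difference of several fold. Among the other receptors the log2 fold change was 0.62 for Notch4 (SE 0.43, interval −0.40 to 1.64), 0.48 for Notch1 (SE 0.63, interval −1.03 to 1.99) and 0.34 for Notch2 (SE 0.46, interval −0.76 to 1.44). The edgeR adjusted p of these 3 genes lay between 0.549 and 0.770. For the ligands the values were 0.25 for Jag2 (interval −1.06 to 1.56), 0.21 for Dll4 (−0.89 to 1.30), 0.08 for Dll1 (−0.80 to 0.95) and −0.11 for Jag1 (−1.22 to 1.00). Hes1, at −0.18, had the narrowest interval (−0.59 to 0.24), and Hey1 was at −0.07 (−0.87 to 0.72).

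The Notch3 value depended on the Osx-Cre;NT3 tumors. Without tumor 25, the highest of its line, the log2 fold change was 2.501 (edgeR adjusted p = 0.0794), and without tumor 18, the lowest, it was 1.01 (edgeR adjusted p = 0.618). With each library's trend on gene length and GC content taken out, Notch3 was at 1.33 (edgeR adjusted p = 0.409) and was the 1 gene of the 10 with an unadjusted p under 0.05, as 12% of all genes had in that fit. Without tumors 13 and 18 together, which leaves 1 Osx-Cre;NT3 tumor assumed to vary like the FSP1-Cre;NT3 tumors, it was 0.49 (edgeR adjusted p = 0.794). For Notch1 the same settings moved the value from 0.48 to 0.13 and to −0.34, and for Notch2 from 0.34 to −0.02 and to −0.43.

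**Figure D3:**
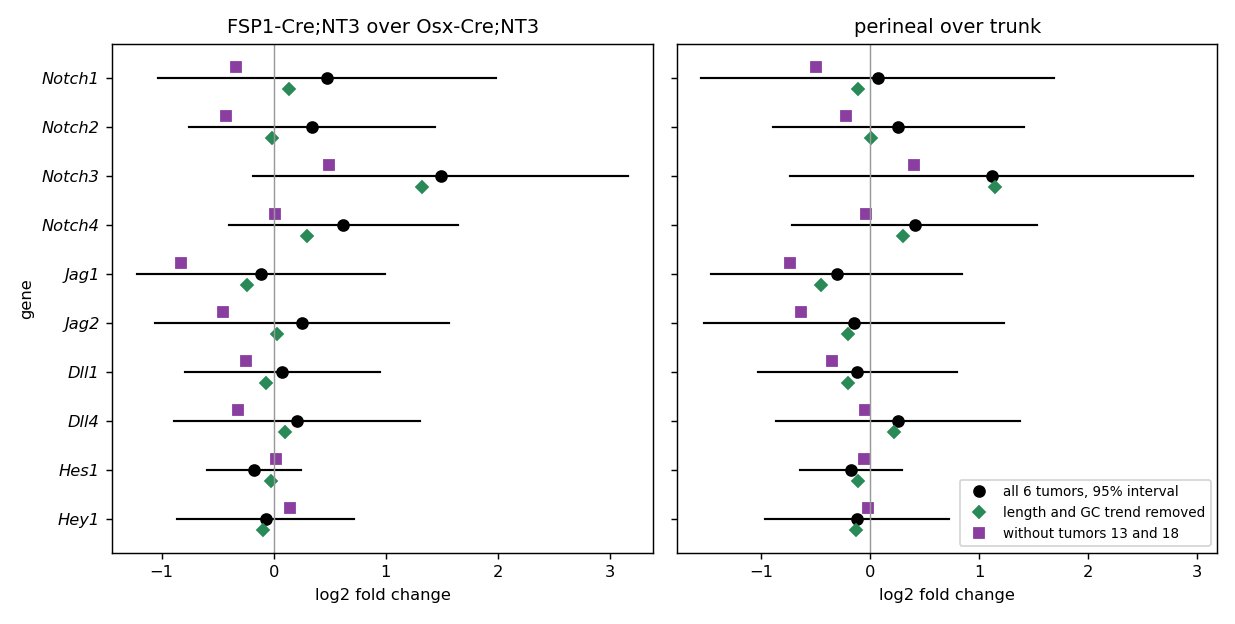
Log2 fold change of each gene between lines (left) and between sites (right). Black points are the edgeR values from all 6 tumors with 95% intervals, green diamonds the values with the length and GC trend taken out, and purple squares the values without tumors 13 and 18. Every black interval crosses 0, and the purple squares of 7 genes lie on the other side of 0 from the black points between lines.

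The comparison of sites set the 2 perineal tumors, both FSP1-Cre;NT3, against the 4 trunk tumors, and shares all 6 tumors with the comparison of lines. With edgeR 0 of the 10 genes passed an adjusted p of 0.05 (0% of 16971 genes) and 0 passed an unadjusted 0.05 (10.5% of genes), and DESeq2 called 0 of 10 against 3.56%. Notch3 was at 1.12 on the log2 scale (perineal over trunk, SE 0.79, interval −0.73 to 2.97, edgeR adjusted p = 0.604) and was again the only gene whose groups did not overlap, as seen in 19.6% of all genes and, in the same direction, in 10.3%. Above 0 were 5 of the 10 genes, against 48.5% of all genes. The other receptors lay between 0.07 for Notch1 and 0.41 for Notch4, the ligands between −0.31 for Jag1 and 0.25 for Dll4, and Hes1 and Hey1 at −0.18 and −0.12. The 2 perineal tumors differed from each other in 4 of these genes by more than in the others, with Notch1 at 691 and 254 CPM, Jag1 at 279.8 and 153, Jag2 at 182 and 66.8 and Dll1 at 67.3 and 29.2. With line as a covariate the Notch3 value was 0.26 (edgeR adjusted p = 1.00), a fit in which only tumor 29 stands for the trunk within FSP1-Cre;NT3.

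The joint trend on gene length and GC content was measured for each gene and tumor. In tumor 18 it accounted for 24.9% of the variance of all genes' deviations. In tumor 36, where these deviations had the largest SD (1.06), it accounted for 0.579%. Tumor 18 was the lowest tumor for 8 of the 10 genes, against 25.2% of all genes and 42.1% of genes of 3 kb or more. In that tumor Notch1 lay at −1.58 on the log2 scale relative to its mean over tumors, where the trend for a gene of its length and GC content was at −0.90 and the remainder −0.67. Notch2 lay at −1.02 and kept −0.17, Notch4 at −1.37 and kept −0.53, and Notch3 at −2.63 and kept −1.74. The range of Notch2 over the 6 tumors narrowed from 1.74 to 0.56 on the log2 scale when the trend was taken out, while that of Notch3 went from 3.75 to 2.81. For Hes1 the range was 0.37 before and 0.42 after.

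Tumor 36 was low in another set of members. With the trend taken out, Notch1 was at −0.66, Jag1 at −0.69, Jag2 at −0.72 and Dll1 at −0.77 there, while Notch3 was at 1.06 and Notch4 at 0.25. The same tumor had the lowest summed level of the 6 basal keratinocyte markers, 5773 CPM against 10061 to 14510 CPM in the others, and the highest of the 6 smooth muscle and myoepithelium markers, 2572 CPM against 281 to 571 CPM. Of the basal markers, Krt5, Krt14, Krt15 and Trp63 were lowest in tumor 36. Itgb4 was lowest in tumor 18 (177 CPM, against 239 in tumor 36). Itga6 was second highest in tumor 36, at 184 CPM, after 215 CPM in tumor 25. The part of these markers in the Notch values was not tested, and in a whole tumor fewer cells of a type and less RNA per cell cannot be told apart.

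**Figure D4:**
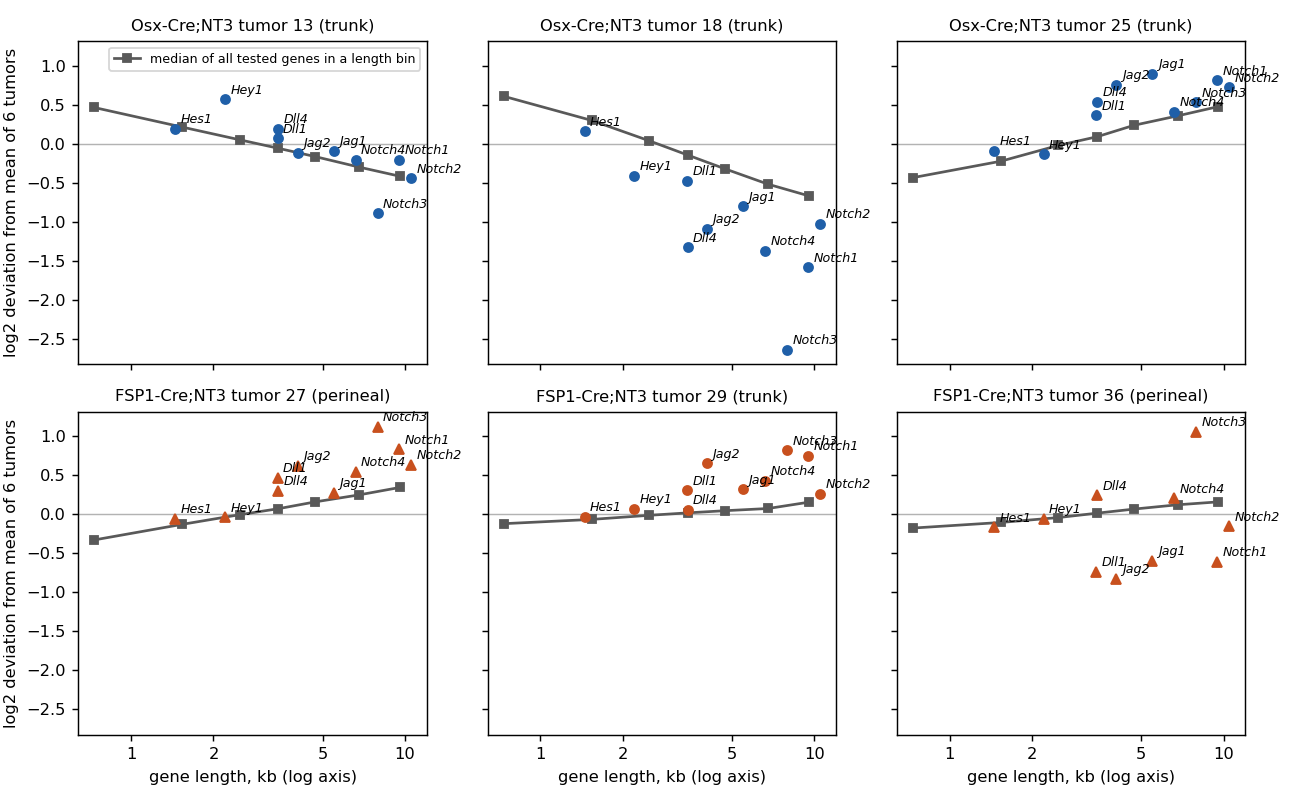
Log2 deviation from the mean of the 6 tumors against gene length in kb (log axis), 1 panel per tumor. Grey squares are medians of all tested genes in 7 length bins, and coloured points are the 10 genes. In tumor 18 the bins fall from 0.61 to −0.67 and all 8 receptors and ligands lie below the grey line. In tumor 36 the bins rise from −0.18 to 0.16. Notch1, Notch2, Jag1, Jag2 and Dll1 lie below the line there, while Notch3 lies above.

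Markers of vessels were set beside the vascular members. The summed level of 10 endothelial genes was 390.1, 211 and 418 CPM in tumors 13, 18 and 25 and 625, 485 and 502 CPM in tumors 27, 29 and 36, and 3 of the 10 did not overlap between lines (17% of all genes). Tumor 18, lowest in Notch4 and Dll4, was also lowest in Pecam1 (50.1 CPM, against 84.3 to 147) and Cdh5 (19.1 CPM, against 51.0 to 103), which mark endothelium. It was the lowest tumor for 25.2% of all genes and 42.1% of genes of 3 kb or more. For pericytes, the sum of 7 genes was 544, 275 and 731 CPM in tumors 13, 18 and 25 and 577, 456 and 541 CPM in tumors 27, 29 and 36. Of these 7 genes 1 did not overlap between lines (17% of all genes). It was the pericyte receptor gene Pdgfrb, at 33.5 to 62.1 CPM in Osx-Cre;NT3 and 80.1 to 112 CPM in FSP1-Cre;NT3. Rgs5 overlapped, at 121 to 344 and 97.7 to 242 CPM, with the lower mean in FSP1-Cre;NT3. The 6 fibroblast markers summed to 3480 to 4785 CPM in Osx-Cre;NT3 and 8103 to 10645 CPM in FSP1-Cre;NT3, with 5 of 6 not overlapping (17% of all genes). None of these defining markers was at 0 in any tumor, and their part in the Notch3 and Notch4 differences was not tested.

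The 2 defining markers of suprabasal keratinocytes, leukocytes, adipocytes and skeletal muscle overlapped between lines, whereas the smooth muscle gene Cnn1 did not, at 2.05 to 2.91 CPM in Osx-Cre;NT3 and 3.79 to 238 CPM in FSP1-Cre;NT3. Cnn1 was the only 1 of the 6 smooth muscle and myoepithelium markers without overlap (17% of all genes). The sums of these markers overlapped, at 281 to 571 and 341 to 2572 CPM. The 238 CPM of Cnn1 was tumor 36, and tumors 27 and 29 were at 4.91 and 3.79 CPM. The suprabasal keratins Krt1 and Krt10, which Notch signalling is known to favour in epidermis, ran from 2.97 to 352 and from 2.54 to 277 CPM, with the lowest values in tumors 18 and 25 and the highest in tumor 36. The other suprabasal markers did not all follow that order, since Dsg1a was highest in tumor 25 (479.6 CPM) and lowest in tumor 36 (167 CPM), and the sum of the 8 markers was 827, 429.6 and 565 CPM in tumors 13, 18 and 25 and 409, 724 and 1037 CPM in tumors 27, 29 and 36. Ptprc and Cd68, of leukocytes, were at 52.8 to 115 and 38.4 to 85.2 CPM. The adipocyte genes Adipoq and Plin1 reached at most 9.31 and 3.97 CPM, and the muscle genes Ckm and Acta1 at most 21.4 and 35.7 CPM.

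The rest of the pathway was followed through 52 other genes, grouped by role, of which 48 were tested between lines. With edgeR 0 of 48 passed an adjusted p of 0.05 (0% of all genes), 2 of 48 an unadjusted 0.05 (10.8% of all genes), and DESeq2 called 1 (2.56% of all genes). The log2 fold change was above 0 in 32 of 48 (51.1% of all genes), with a median of 0.14. With the length and GC trend taken out it was above 0 in 27 of 48, with a median of 0.045.

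Poglut1 and Pofut1, which glycosylate the receptors, were at 61.3 ± 17.7 and 5.55 ± 1.81 RPKM (SD, n = 6). Poglut1 was lowest in tumor 36, at 87.3 CPM against 201 to 254 CPM. All Osx-Cre;NT3 tumors (224 to 254 CPM) were above all FSP1-Cre;NT3 tumors (87.3 to 219 CPM). Pofut1 was at 28.5, 21.1 and 42.7 CPM in Osx-Cre;NT3 tumors 13, 18 and 25 and at 46.6, 42.0 and 49.0 CPM in tumors 27, 29 and 36 (log2 fold change 0.58, edgeR adjusted p = 0.466). Lfng, the Fringe enzyme that alters ligand preference, was at 15.5 to 16.8 CPM in Osx-Cre;NT3, at 17.7 in the FSP1-Cre;NT3 trunk tumor and at 25.9 and 26.2 in the perineal tumors. Its perineal to trunk log2 fold change was 0.66 (SE 0.21, edgeR adjusted p = 0.339; DESeq2 adjusted p = 0.0347). Psenen, a subunit of the γ-secretase that releases the intracellular part, was the highest of the cleavage genes by RPKM (84.3 ± 26.9, SD, n = 6), and in CPM stood at 97.9 and 106 in tumors 13 and 18 and 47.9 to 57.5 in the other 4. Psenen is a short gene, 0.65 kb long. The median gene under 1 kb was at 0.46 and 0.61 on the log2 scale in tumors 13 and 18. The part of the length trend in the Psenen values was not tested. Of the 10 cleavage genes 7 were above 0 and 0 passed.

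Numbl, which had the smallest p of the 48 genes tested between lines and is a relative of the Notch inhibitor Numb, was at 10.4, 8.87 and 9.23 CPM in Osx-Cre;NT3 and at 15.1, 16.9 and 16.9 CPM in FSP1-Cre;NT3, without overlap (17% of all genes). Its log2 fold change was 0.78 (SE 0.22, edgeR adjusted p = 0.458), and it is the gene that DESeq2 called (adjusted p = 0.0132). Dtx1, a Deltex ubiquitin ligase, was low, at 1.41 to 2.32 CPM in Osx-Cre;NT3 and 4.45, 1.95 and 3.34 CPM in tumors 27, 29 and 36. Between sites its log2 fold change was 1.07 (SE 0.40, edgeR adjusted p = 0.415). Dtx3 was the highest of this class by RPKM, and in CPM ran from 27.2 in tumor 36 to 70.1 in tumor 29. In ligand endocytosis Mib1, the ubiquitin ligase that activates ligands, was the highest by RPKM, at 18.0 and 18.4 CPM in tumors 13 and 18 and 26.8 to 46.0 CPM in the others. Snw1, a coactivator of the nuclear complex, was at 196, 205 and 130.1 CPM in tumors 13, 18 and 25 and at 130.2, 158 and 112 CPM in tumors 27, 29 and 36. The CPM values of Mib1 and Snw1 were not corrected for the length and GC trend.

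Hey2 was at 1.32 to 1.67 CPM in Osx-Cre;NT3 and 2.27 to 3.33 CPM in FSP1-Cre;NT3, without overlap (log2 fold change 0.88, SE 0.36, edgeR adjusted p = 0.458). Heyl, a target known from smooth muscle and pericytes, was at 14.4, 7.18 and 16.01 CPM in tumors 13, 18 and 25 and at 27.6, 17.5 and 19.3 CPM in tumors 27, 29 and 36, also without overlap (0.78, SE 0.36, edgeR adjusted p = 0.464). Of the other pathway genes Aph1b, Lfng, Numbl and Poglut1 did not overlap either, Poglut1 with FSP1-Cre;NT3 lower. Such a pattern was seen in 17% of all genes tested. Tumor 18 was lowest and tumor 27 highest for both Heyl and Notch3. Both genes are longer than 3 kb, and tumor 18 was the lowest tumor for 42.1% of all genes of 3 kb or more. Hes6, the highest of the class by RPKM, stayed between 25.5 and 38.3 CPM. Hes2 was at 1.16 CPM in tumor 36 and at most 0.231 CPM elsewhere. Hes3 and Hes5 were at 0 or under 0.157 CPM, where 3 counts correspond to 0.0184 to 0.0579 CPM depending on the library, and Dll3 was at 0.0256 to 0.153 CPM. Of the noncanonical ligands Dlk2 was the highest by RPKM, at 0.675 to 2.90 CPM.

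**Figure D5:**
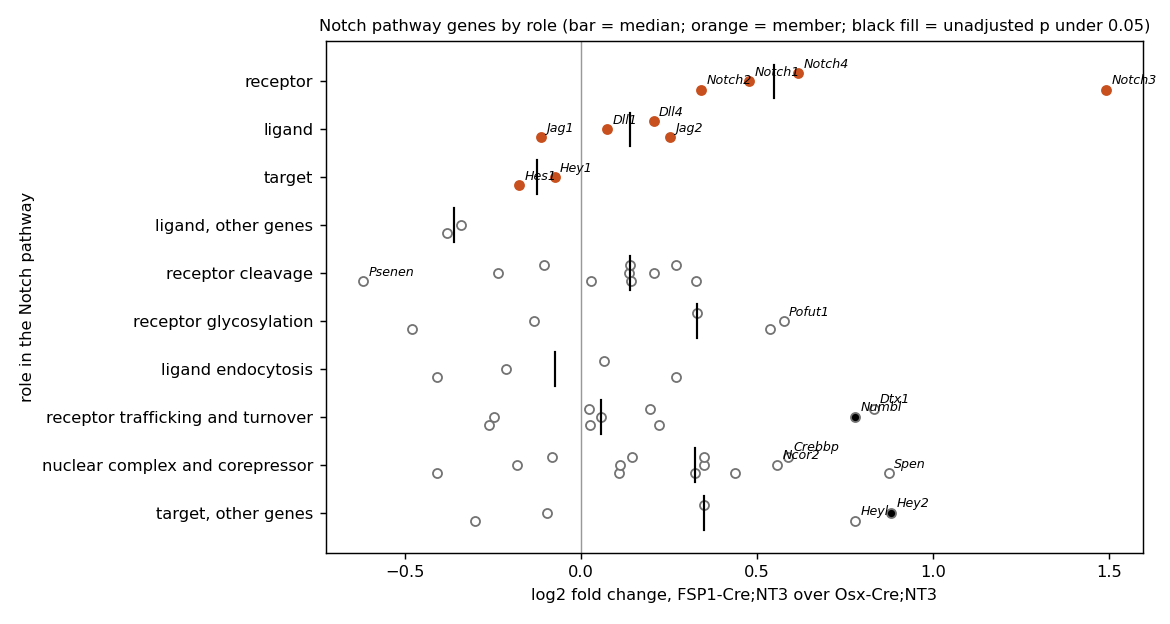
Log2 fold change between lines of the 10 genes (orange) and the other tested pathway genes (grey circles) by role, with the median of each role as a bar and a black fill where the unadjusted edgeR p was under 0.05. The receptors lie at 0.34 to 1.49, the 2 targets at −0.18 and −0.07, and only Numbl and Hey2 have a black fill.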

How the data were processed

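RNA of 6 tumors, 1 library each, was sequenced from a total RNA extract with an mRNA library kit. Per the methods, trimmed reads were aligned by the authors with HISAT2 (mm10) and assigned to genes with featureCounts; the submitters' processing notes instead name bcl2fastq, TopHat2 2.0.6 and HTSeq with mm10. Annotation and strand setting were not given in the sources used here, and exons of 5 of the 10 genes (Notch1, Notch2, Notch3, Dll1 and Dll4) overlap other annotated transcripts, whose reads may not be separable. The authors deposited raw counts per gene, all of them even (0 odd values), and RPKM values, which they computed from the counts and a gene length.

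Counts were tested with edgeR 4.0.16 (R 4.3.3; quasi-likelihood, filterByExpr, TMM scaling), adjusted by Benjamini-Hochberg over all genes tested; DESeq2 1.42.0 was an alternative. The SE is the fold change divided by the root of the F statistic. CPM values are TMM-scaled, and log2 levels used a prior count of 2. Length and GC trends were fitted per library as natural splines with 5 degrees of freedom, centred on the library's median and used as offsets (14826 of 16415 genes have a GC value). This, its uncentred form and leaving out tumors 13 and 18 were chosen after seeing the data. Other alternatives were library-size and upper-quartile scaling, count filters, halved counts, a covariate for site or line, trunk or FSP1-Cre;NT3 tumors alone, and each tumor left out. The scripts were tested on simulated data.

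The members, gene lists and tests were chosen with earlier results of these data known. All 10 members are described; of 52 other pathway genes those named are the highest by RPKM in each role and the 5 with the smallest p in each comparison, and of 69 cell type markers the 2 defining each list. The labels number the tumors and do not say in words that each came from a separate mouse, so that p-values measure the spread between these samples.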

Additional observations from a re-analysis of the deposited data

Results flagged for a closer look

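Over the 6 tumors, 38 quantities were examined for a single tumor far from the other 5 (Dixon's criterion for 6 values), of which chance alone would give about 1.9, and 5 met this. Dll4 was low in tumor 18, at 2.22 on the log2 CPM scale with the next tumor at 3.61. The Notch3 share of the receptor RPKM was high in tumor 36, at 11.3% with the next at 5.27%. Poglut1 was low in tumor 36, at 6.45 on the log2 CPM scale with the next at 7.65. The smooth muscle and myoepithelium marker list was high in tumor 36, at 11.33 on the log2 scale of summed CPM with the next at 9.16, and so was the simple epithelium list, at 12.07 with the next at 9.93. The part of the 2 marker lists in the Notch3 share and in Poglut1 was not tested.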

How the results depend on the processing

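No adjusted call was made for any of the 10 genes under any of the 18 alternatives run for each comparison. Of 360 recomputed fold changes, 309 kept their direction and 51 changed sign. Notch3 stayed above 0 in 18 of 18 alternatives for both line and site, Notch4 in 18 of 18 for line, and Hes1 stayed below 0 in 18 of 18 for site. DESeq2 called 420 genes between lines and 605 between sites, against 0 with edgeR, and 1 pathway gene in each; the cause was not tested. Leaving out each tumor gave 0 to 567 genes between sites, namely 567 without tumor 27, which leaves tumor 36 alone as perineal, 2 without tumor 25 and 0 otherwise.

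Between lines, leaving out each tumor gave Jag1 −0.43 to 0.42, Jag2 −0.10 to 0.78, Dll1 −0.16 to 0.36, Dll4 −0.18 to 0.55 and Hey1 −0.27 to 0.26. Between sites it gave Notch1 −0.84 to 0.62, Notch2 −0.20 to 0.60, Jag1 −0.83 to 0.065, Jag2 −1.06 to 0.40, Dll1 −0.87 to 0.36, Dll4 −0.010 to 0.47 and Hey1 −0.25 to 0.093.

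Between lines, sign changes came without tumors 13 and 18 (Notch1 −0.34, Notch2 −0.43, Jag2 −0.45, Dll1 −0.24, Dll4 −0.32, Hes1 0.022, Hey1 0.14), with the length and GC trend removed (Notch2 −0.020, Dll1 −0.073), with that trend uncentred (Notch1 −0.022, Notch2 −0.19, Jag2 −0.13, Dll1 −0.23, Dll4 −0.092), with site as a covariate (Jag1 0.15, Hey1 0.0041), in trunk tumors only (Jag1 0.15, Hey1 0.00081) and with library sizes alone (Hey1 0.045). Between sites they came without tumors 13 and 18 (Notch1 −0.50, Notch2 −0.22, Notch4 −0.036, Dll4 −0.050), with the length trend removed (Notch1 −0.090), with the length and GC trend removed (Notch1 −0.11), with that trend uncentred (Notch1 −0.28, Notch2 −0.19, Dll4 −0.0092), with line as a covariate (Notch1 −0.47, Notch4 −0.048) and in FSP1-Cre;NT3 tumors only (Notch1 −0.47, Notch4 −0.052). The uncentred trend moved the median of all genes from 0.01 to −0.19 between lines and from −0.02 to −0.24 between sites, and library sizes alone moved it to 0.12 between lines. No paired analysis was possible because the lines share no replicate numbers. With 3 tumors a line and 1 FSP1-Cre;NT3 trunk tumor, line and site cannot be told apart for most of these genes, and the intervals leave room for differences of more than 2-fold in either direction for Notch1.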
